A study of Mus musculus with 4 samples.

Results

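The genes described here encode the enzymes and carriers that handle superoxide, peroxides and oxidised thiols: the glutathione system, the thioredoxin system, superoxide dismutases, catalase, methionine sulfoxide reductases and quinone reductases, together with the transcription factor NRF2 (Nfe2l2). Members were chosen by gene symbol, as families of names plus 10 single symbols, with earlier results of these data known. Each gene was read on its brightest probe set by the mean of the 4 arrays. In all, 64 of 10926 named genes were members. Keap1, the inhibitor of NRF2, was the listed symbol not analysed here. Mitochondrial members, 8 of the 64, are described apart.

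The samples were mouse brown adipocytes, labelled wild type, that expressed either Blnc1, a long noncoding RNA named for brown fat, or an empty vector from the preadipocyte stage. Both kinds were differentiated for 6 days. Total RNA was read on 4 Affymetrix mouse arrays, 2 for Blnc1 cells and 2 for vector cells. The labels call the replicates biological without saying whether they came from separate transductions or animals, and no strain is named in them, so p-values measure only the spread between these arrays.

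Superoxide dismutases turn superoxide into hydrogen peroxide, which catalase, glutathione peroxidases and peroxiredoxins then reduce. Peroxidases draw their electrons from glutathione or thioredoxin, and both are recharged from NADPH by glutathione reductase and thioredoxin reductases. Mitochondria keep their own set of these enzymes next to the respiratory chain, and brown adipocytes are rich in mitochondria. NRF2 is held in the cytoplasm by KEAP1 and, once released, pairs with small MAF proteins at antioxidant response elements of many of these genes.

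All values are log2 expression as deposited, and fold changes are Blnc1 over vector. The Blnc1 transcript checked the labels: its brighter probe set, annotated C730029A08Rik, read 12.73 and 12.75 in Blnc1 cells, against 8.08 and 8.14 in vector cells. The dimmer probe set of that symbol went the other way. It read 6.35 and 6.24 in Blnc1 cells, against 6.82 and 6.40 in vector cells (-0.31, limma adjusted p = 0.315). Adipocyte markers were present, with Fabp4 near the top of the scale at 13.27 and 13.29 in Blnc1 cells and 13.27 and 13.28 in vector cells. The brown fat marker Ucp1 read 7.97 and 8.05 in Blnc1 cells, against 5.01 and 5.01 in vector cells. Of 7 brown adipocyte markers 5 rose (limma, adjusted p under 0.05), which moved with every result below, and their part in those results was not tested. The 2 measured macrophage and leukocyte markers (summed level 8.77 to 9.08 in Blnc1 cells and 8.78 to 8.87 in vector cells), the endothelial Kdr (4.21 to 4.23 and 4.10 to 4.36) and the 2 muscle markers (9.15 to 9.32 and 9.09 to 9.14) lay low and overlapped or lay close between the groups. The red cell marker Hba-a1 read 6.04 and 6.13 in Blnc1 cells and 6.13 and 6.19 in vector cells. Array medians were 6.04 and 5.98 in Blnc1 cells and 5.99 and 6.00 in vector cells. The excess of 3' over 5' signal of control probe sets speaks to RNA integrity. For Gapdh it averaged 0.28 in Blnc1 cells and 0.41 in vector cells, and for Actb 1.34 and 1.51 in that order. The number of arrays limits the precision.

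As background to the NRF2 targets among the members, promoters were searched for the core of the antioxidant response element, TGACNNNGC, on both strands. RefSeq promoters on GRCm38.p6, from 250 bases before to 50 after a gene's start, were at hand for 56 of the 64 genes. Of these, 13 (23.2%) held a match in any of their promoters, against 14.0% of all genes with such a promoter. Counted by promoter, the shares were 17.3% of 75 and 12.4% of 32851. The following 6 windows are examples. Each places that motif before the start of a member that the results below describe, as do some windows not shown. Each is written 5′ to 3′ along the gene's strand, with the 9 bases of the match in capitals, read on the opposite strand where they begin with GC.
Gclm, chr3:122245398-122245456, + strand: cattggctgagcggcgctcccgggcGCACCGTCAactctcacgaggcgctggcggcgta
Prdx1, chr4:116685441-116685499, + strand: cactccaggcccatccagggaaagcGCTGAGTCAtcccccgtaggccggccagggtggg
Txnrd1, chr10:82859089-82859147, + strand: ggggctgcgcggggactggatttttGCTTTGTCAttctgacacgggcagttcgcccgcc
Mgst1, chr6:138140446-138140504, + strand: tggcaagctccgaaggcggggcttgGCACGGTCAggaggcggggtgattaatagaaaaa
Sod1, chr16:90220681-90220739, + strand: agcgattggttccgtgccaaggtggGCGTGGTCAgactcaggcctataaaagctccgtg
Txndc5, chr13:38528019-38528077, - strand: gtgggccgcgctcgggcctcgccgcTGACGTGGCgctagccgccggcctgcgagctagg
The matches begin 134, 133, 92, 56, 56 and 138 bases before the start in that order. The Prdx1 match overlaps the AP-1 motif TGACTCA, which 5.95% of all genes held in a promoter on either strand. The remaining matches lay in promoters of Gstm5, Gstm7, Msrb2, Nfe2l2, Srxn1, Txndc11 and Txndc2. A match is a description of the sequence and does not show binding. The 13 genes with a match had a median log2 fold change of 0.02, with 8 positive and a range of -0.34 to 0.50, and the 43 without had a median of 0.02, with 23 positive and a range of -0.43 to 0.42.

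No member passed the test between Blnc1 and vector cells at an adjusted p of 0.05 (limma, Benjamini-Hochberg over all probe sets), where 1.23% of all genes did (0.86% higher and 0.366% lower in Blnc1 cells). At an adjusted p of 0.10 there were 2 members, Sod2 and Gpx7, against 4.99% of all genes. At an unadjusted p under 0.05 there were 17 members (26.6%), against 20.7% of all genes: 10 were higher in Blnc1 cells (11.7% of all genes were) and 7 lower (9.08%). Both Blnc1 arrays lay above both vector arrays for 21 members and below for 16, together 57.8%, against 53.2% of all genes. The median log2 fold change of the 64 members was 0.02, with 37 positive (57.8%), beside a median of 0.01 and 51.6% positive for all genes. These shares were near those of all genes. In bulk RNA, fewer cells of a type and less RNA per cell cannot be told apart.

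**Figure D1:**
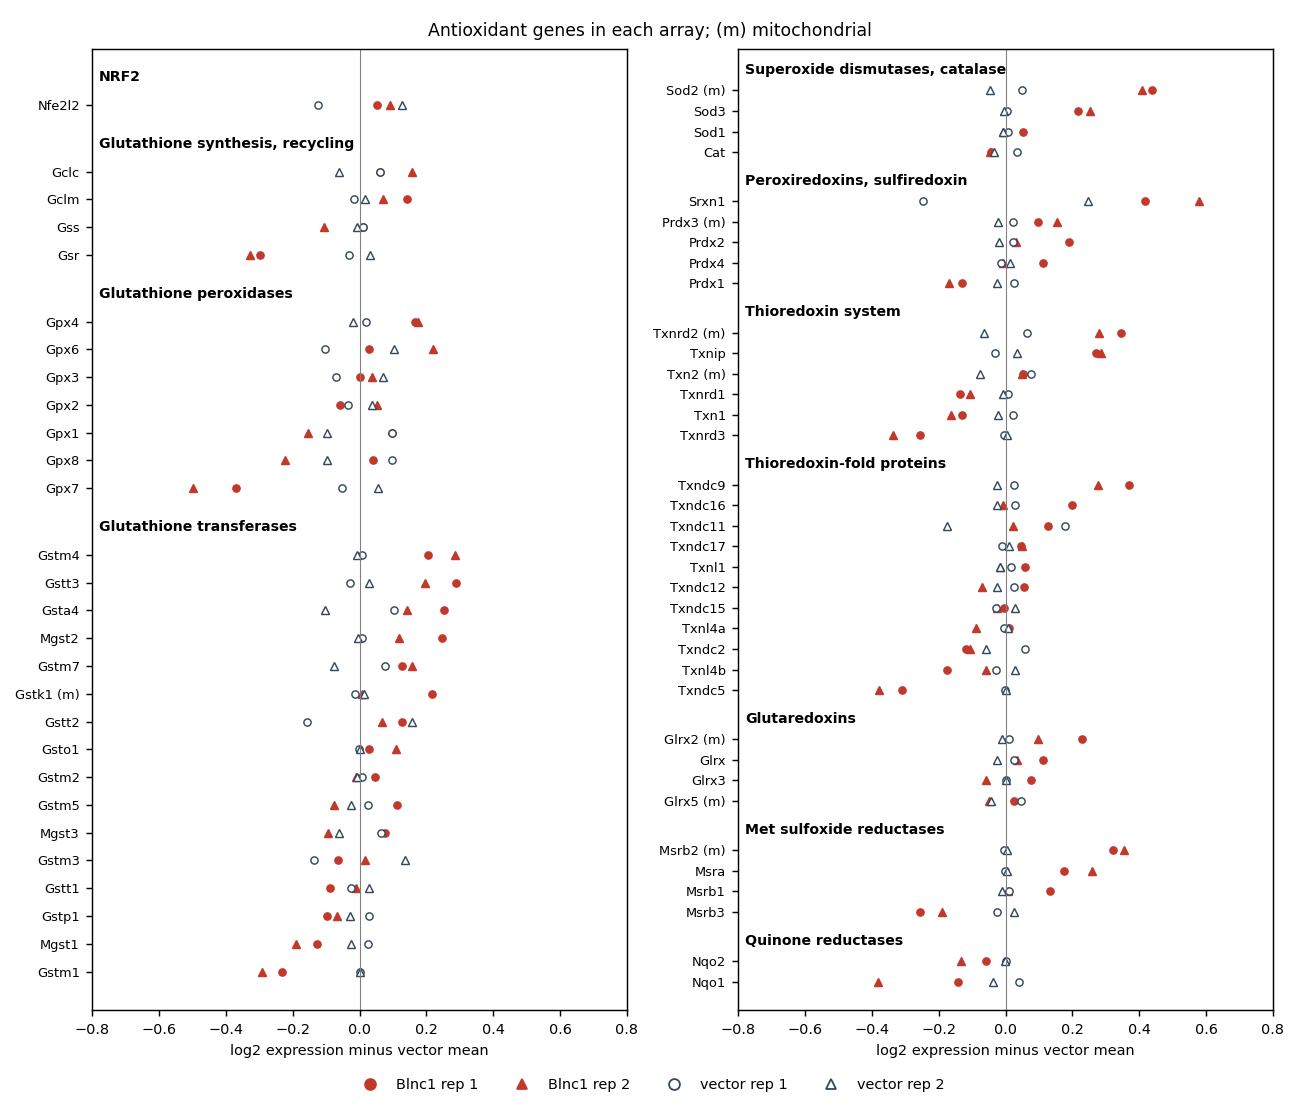
Log2 expression of each of the 64 members on each array, as the difference from that gene's vector mean (horizontal axis, log2 units), grouped by enzyme system; filled red symbols are Blnc1 arrays, open dark symbols vector arrays, circles replicate 1 and triangles replicate 2. Sod2, Msrb2 and Txnrd2 lie to the right and Gpx7, Txndc5 and Gsr to the left of their vector arrays, while the groups overlap for 27 members.

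Intervals were taken gene by gene, without adjustment, from the spread between these arrays. They do not bound changes of dim probe sets (9 members with a mean under 5), which such deposited summaries understate. For 61 of the 64 members the 95% interval of the fold change lay within 1.5-fold in either direction (0.58 log2 units). The exceptions were Srxn1, whose interval reached 0.91, Sod2, which reached 0.62, and Gpx7, which reached -0.65. The call depended on how the variances were pooled. With a variance prior that follows the expression level, 11 members passed (17.2%, against 11.3% of all genes in that fit), 4 higher and 7 lower: Sod2, Txndc9, Txnip and Gpx4 were higher, and Gpx7, Txndc5, Gsr, Gstm1, Mgst1, Prdx1 and Txn1 lower. These 11 are named below with their values in the fit without that trend. The members had 39 further probe sets besides those used, of which none passed. Their log2 fold changes had the sign of the probe set used in 33 cases and the opposite sign in 6, for Txndc9, Glrx3, Nqo2, Txndc11, Txnl1 and Txnl4a. Of these 6 only that of Glrx3 (-0.32) had an unadjusted p under 0.05.

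Superoxide dismutases and catalase came first in the chain of reactions, and the mitochondrial isoform Sod2 had the smallest p of any member. Sod2 read 11.59 and 11.56 in Blnc1 cells, against 11.20 and 11.10 in vector cells. The groups did not overlap, and the mean was 1.34-fold higher in Blnc1 cells (log2 fold change 0.42 ± 0.080 SE, limma adjusted p = 0.0780). Sod2 was covered by 4 probe sets, and the other 3 stood at 0.38, 0.36 and 0.31, of which the dimmest overlapped between the groups. The extracellular isoform Sod3 read 5.40 and 5.44 in Blnc1 cells, against 5.19 and 5.18 in vector cells (0.23 ± 0.075 SE, limma adjusted p = 0.183). The cytosolic isoform Sod1 read 11.28 and 11.22 in Blnc1 cells and 11.24 and 11.22 in vector cells, so the groups overlapped, and its difference of 0.02 turned negative after repeated quantile normalization. Catalase, the peroxisomal enzyme that breaks down hydrogen peroxide, read 11.50 and 11.49 in Blnc1 cells and 11.57 and 11.50 in vector cells (-0.05, 95% interval -0.24 to 0.14).

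Peroxiredoxins reduce peroxides with electrons from thioredoxin. The cytosolic Prdx1, whose promoter window is printed above, read 11.68 and 11.64 in Blnc1 cells, against 11.84 and 11.79 in vector cells. Both Blnc1 arrays were the lower (-0.15 ± 0.077 SE, limma adjusted p = 0.360), and a second probe set stood at -0.15. The mitochondrial Prdx3 read 11.07 and 11.12 in Blnc1 cells, against 10.99 and 10.94 in vector cells (0.13 ± 0.078 SE, limma adjusted p = 0.446). Prdx2 stood at 0.11 and the endoplasmic reticulum enzyme Prdx4 at 0.05. Srxn1, the sulfiredoxin that restores overoxidised peroxiredoxins, had the widest spread of any member: it read 6.84 and 7.00 in Blnc1 cells, against 6.18 and 6.67 in vector cells. The vector arrays alone differed by 0.49, as much as the groups did (0.50 ± 0.17 SE, limma adjusted p = 0.198), and the other 2 probe sets of Srxn1 stood at 0.16 and 0.17.

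Of 6 core genes of the thioredoxin system 3 had a positive and 3 a negative log2 fold change. Thioredoxin is a small protein that passes electrons to peroxiredoxins and other targets, and thioredoxin reductases, which are selenoproteins, recharge it. The mitochondrial reductase Txnrd2 read 6.77 and 6.70 in Blnc1 cells, against 6.48 and 6.36 in vector cells. The groups did not overlap (0.31 ± 0.086 SE, limma adjusted p = 0.143), and 3 further probe sets stood at 0.49, 0.07 and 0.30. The cytosolic reductase Txnrd1 read 7.82 and 7.85 in Blnc1 cells, against 7.96 and 7.95 in vector cells (-0.12 ± 0.075 SE, limma adjusted p = 0.446). Txnrd3, a reductase with an added glutaredoxin domain, read 6.19 and 6.11 in Blnc1 cells, against 6.44 and 6.45 in vector cells (-0.30 ± 0.078 SE, limma adjusted p = 0.135). Its 2 further probe sets stood at -0.11 and -0.06, each with overlapping groups. On the probe sets used, both Blnc1 arrays were above both vector arrays for Txnrd2 and below them for Txnrd1 and Txnrd3. The cytosolic thioredoxin Txn1 read 10.80 and 10.77 in Blnc1 cells, against 10.95 and 10.91 in vector cells (-0.15 ± 0.076 SE, limma adjusted p = 0.367). The mitochondrial Txn2 stood at 0.05, with overlapping groups.

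Txnip, an arrestin-like protein that binds and inhibits thioredoxin and lowers glucose uptake, read 9.10 and 9.11 in Blnc1 cells, against 8.80 and 8.86 in vector cells. The Blnc1 arrays were both higher (0.28 ± 0.077 SE, limma adjusted p = 0.147), and its second probe set stood at 0.39.

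**Figure D2:**
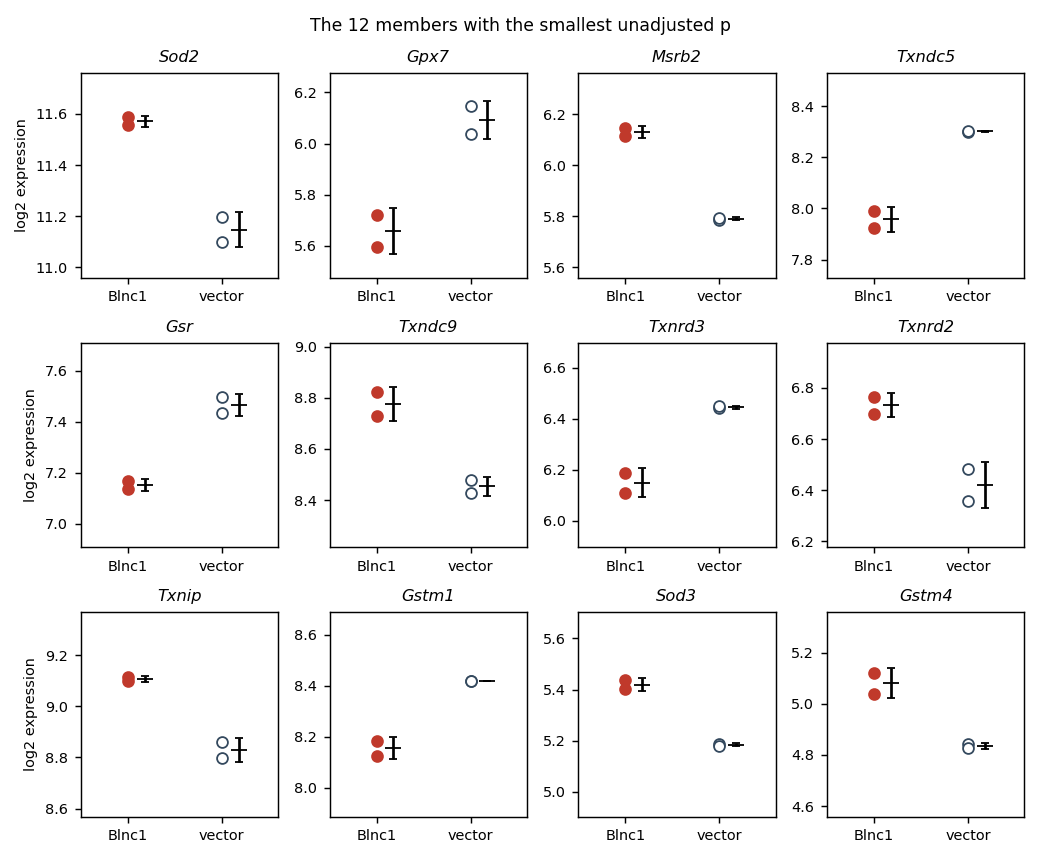
Log2 expression (vertical axis, each panel spanning the same 0.8 units) of the 12 members with the smallest unadjusted p, Blnc1 arrays in red on the left and vector arrays as open symbols on the right of each panel, with mean and SD of the 2 arrays as black marks. The panels were chosen by p, so groups apart in every panel, 7 higher and 5 lower in Blnc1 cells, reflect that choice. Of all genes 53.2% had groups apart. None of the 12 passed the adjusted test.

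Among the 11 proteins with a thioredoxin fold, 2 had an unadjusted p under 0.05 (18.2%, against 20.7% of all genes). Txndc9, a cytosolic protein that binds the chaperonin CCT, read 8.82 and 8.73 in Blnc1 cells, against 8.48 and 8.43 in vector cells (0.32 ± 0.081 SE, limma adjusted p = 0.124). Its dimmer probe set stood at -0.08, with overlapping groups. Txndc5, a protein disulfide isomerase of the endoplasmic reticulum, read 7.99 and 7.92 in Blnc1 cells, against 8.30 and 8.30 in vector cells (-0.34 ± 0.077 SE, limma adjusted p = 0.103). Its second probe set stood at -0.47 (limma adjusted p = 0.0824), so both probe sets were lower. The other 9 (Txndc2, Txndc11, Txndc12, Txndc15, Txndc16, Txndc17, Txnl1 and the splicing proteins Txnl4a and Txnl4b) lay between -0.12 and 0.09.

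Glutaredoxins use glutathione to reduce mixed disulfides or to carry iron-sulfur clusters. The mitochondrial Glrx2 stood at 0.16, cytosolic Glrx at 0.07, Glrx3 at 0.01 and the mitochondrial Glrx5, which serves iron-sulfur cluster assembly, at -0.01. Both Blnc1 arrays lay above both vector arrays for Glrx2 and Glrx only.

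Glutathione is made by glutamate-cysteine ligase, whose catalytic subunit is Gclc and modifier subunit Gclm, and by glutathione synthetase, Gss. Gclc read 7.52 and 7.62 in Blnc1 cells and 7.52 and 7.40 in vector cells (0.11 ± 0.087 SE, limma adjusted p = 0.559), and the groups overlapped. Gclm read 9.26 and 9.19 in Blnc1 cells, against 9.10 and 9.13 in vector cells (0.11 ± 0.078 SE, limma adjusted p = 0.523). Gss stood at -0.05. Gsr, the reductase that recycles oxidised glutathione, read 7.17 and 7.14 in Blnc1 cells, against 7.43 and 7.50 in vector cells. It was the lowest of the 4 in Blnc1 cells relative to vector cells (-0.31 ± 0.077 SE, limma adjusted p = 0.122), and its dimmer probe set stood at -0.24.

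Of the 7 measured glutathione peroxidases 3 were positive and 4 negative. Gpx4, the selenoenzyme that reduces lipid peroxides in membranes and so opposes ferroptosis, read 11.68 and 11.69 in Blnc1 cells, against 11.54 and 11.50 in vector cells. The groups did not overlap (0.17 ± 0.076 SE, limma adjusted p = 0.296), and its second probe set stood at 0.18. Gpx1, the abundant selenoenzyme of cytosol and mitochondria, read 9.86 and 9.61 in Blnc1 cells and 9.86 and 9.66 in vector cells. Its replicates differed by more than the groups did (-0.03, 95% interval -0.32 to 0.26). Gpx7, a peroxidase of the endoplasmic reticulum that lacks selenocysteine, read 5.72 and 5.59 in Blnc1 cells, against 6.04 and 6.15 in vector cells. That was the lowest log2 fold change of any member (-0.43 ± 0.089 SE, limma adjusted p = 0.0880). Its relative Gpx8 stood at -0.09 with overlapping groups, and Gpx2, Gpx3 and Gpx6 lay between -0.0037 and 0.12.

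Glutathione transferases join glutathione to reactive compounds, and 10 of the 16 measured were positive, with a median of 0.04. Mgst1, a membrane-bound transferase with peroxidase activity, read 12.03 and 11.96 in Blnc1 cells, against 12.18 and 12.13 in vector cells (-0.16 ± 0.078 SE, limma adjusted p = 0.343). Gstm1, a mu-class enzyme, read 8.19 and 8.13 in Blnc1 cells, against 8.42 and 8.42 in vector cells (-0.26 ± 0.077 SE, limma adjusted p = 0.158), and 3 further probe sets stood at -0.16, -0.07 and -0.30. Gstm4 read 5.04 and 5.12 in Blnc1 cells, against 4.84 and 4.83 in vector cells (0.24 ± 0.079 SE, limma adjusted p = 0.184). These 2 mu-class genes thus stood on opposite sides, but mu-class transcripts are similar to each other and the Gstm1 probe set is of the kind prone to cross-hybridisation. Of the rest, Gstt3, at 0.24, was at the dim end of the arrays, Gsta4 stood at 0.20 and Mgst2 at 0.18. Gstm7, Gstk1, Gstt2, Gsto1, Gstm2, Gstm5, Mgst3, Gstm3, Gstt1 and Gstp1 lay between -0.08 and 0.14.

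Methionine sulfoxide reductases repair oxidised methionine, Msra acting on one stereoisomer and the Msrb enzymes on the other. The mitochondrial Msrb2 read 6.11 and 6.14 in Blnc1 cells, against 5.79 and 5.79 in vector cells (0.34 ± 0.075 SE, limma adjusted p = 0.101). Msra stood at 0.22 and the selenoenzyme Msrb1 at 0.07. Msrb3, which in mouse is an endoplasmic reticulum protein, stood at -0.22, with both Blnc1 arrays below both vector arrays.

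NRF2 and its textbook targets stood on both sides of zero. Nfe2l2 itself read 9.25 and 9.29 in Blnc1 cells and 9.07 and 9.33 in vector cells, with the vector arrays on either side of both Blnc1 arrays (0.07, 95% interval -0.19 to 0.33). Nqo1, a quinone reductase often used as an NRF2 reporter, read 4.32 and 4.08 in Blnc1 cells, against 4.50 and 4.42 in vector cells. It was dim in both groups and lower in Blnc1 cells (-0.26 ± 0.10 SE, limma adjusted p = 0.253), and Nqo2 stood at -0.10. Of the other targets described above, Srxn1 and Gclm lay above zero and Txnrd1 and Prdx1 below.

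The 8 mitochondrial members were Sod2, Txnrd2, Msrb2, Prdx3, Txn2, Glrx2, Glrx5 and Gstk1. Of these 7 (87.5%) had a positive log2 fold change, as 51.6% of all genes did. An unadjusted p under 0.05 with higher values in Blnc1 cells was found for 3 (37.5%, against 11.7% of all genes), and both Blnc1 arrays lay above both vector arrays for 5 (62.5%, against 28.3%). Of the other 56 members, 6 are shared by mitochondria and other parts of the cell: Gsr, Gpx1, Gpx4, Mgst1, Msra and Sod1. These had 3 positive and 3 negative values and a median of -0.0025. Beside a median of 0.02 for all 56, that of the 8 mitochondrial members was 0.14. Genes of the mitochondrial ribosome (73 measured, median 0.15, 86.3% positive, 32.9% higher at that p) and Nduf genes of respiratory complex I (42 measured, median 0.16, each above zero in the fit used here, 40.5% higher at that p) had medians near it, and nothing particular to the antioxidant enzymes was shown.

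Of the mitochondrial members 7 had close counterparts among the members that are cytosolic or mainly so, which gave 8 pairs, since Prdx3 was set against both Prdx1 and Prdx2. The pairs were chosen after their values were seen, so their direction is a description. The log2 fold change of the mitochondrial member was the higher in 7 of the 8 pairs, by a median over all 8 of 0.23 log2 units. The difference of the log2 fold changes was 0.43 for Txnrd2 and Txnrd1, 0.40 for Sod2 and Sod1, and 0.28 for Prdx3 and Prdx1. It was 0.27 for Msrb2 and Msrb1, 0.20 for Txn2 and Txn1, and 0.09 for Glrx2 and Glrx. In these 6 pairs both Blnc1 arrays lay above both vector arrays. The other 2 pairs overlapped between the groups, at 0.02 for Prdx3 and Prdx2 and -0.02 for Glrx5 and Glrx3. No such share was taken over pairs of other genes. Among single genes, 28.3% of all genes lay wholly above, as did 71.2% of the mitochondrial ribosomal and 92.9% of the Nduf genes. Pooled SDs between replicates were 0.030 to 0.11 over the 8 pairs. Taken array by array as the difference from the vector mean, the Sod2 minus Sod1 value was 0.39 and 0.41 in Blnc1 cells, against 0.04 and -0.04 in vector cells. With 2 arrays per group an exact permutation test cannot go below p = 0.333 (two-sided).

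**Figure D3:**
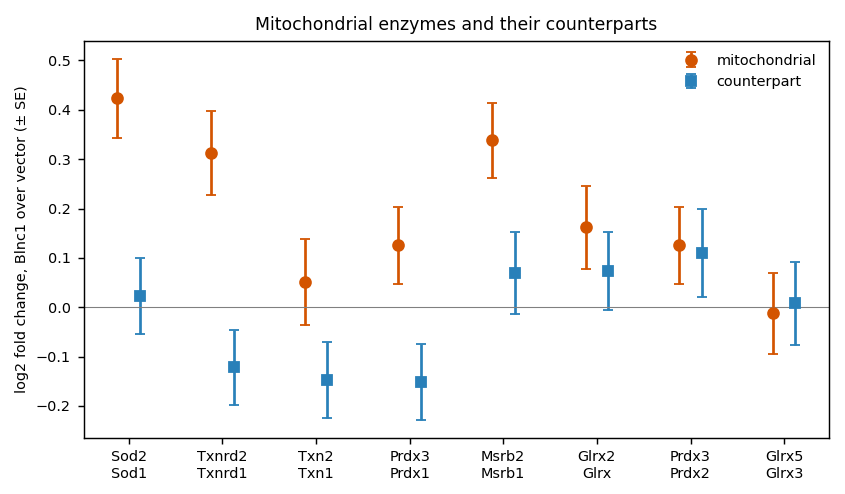
Log2 fold change, Blnc1 over vector (vertical axis), of 7 mitochondrial enzymes (orange circles) and of their counterparts (blue squares) in 8 pairs chosen after their values were seen, with limma SE as bars. The mitochondrial member lies higher by 0.09 to 0.43 in 6 pairs, and the symbols nearly coincide for Prdx3 with Prdx2 and Glrx5 with Glrx3.

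Members of the endoplasmic reticulum, also grouped after their values were seen, were Gpx7, Gpx8, Prdx4, Txndc5, Txndc11, Txndc12, Txndc16 and Msrb3. Gpx7, Txndc5 and Msrb3 had both Blnc1 arrays below both vector arrays (24.9% of all genes did). None of this chosen group lay wholly above (28.3% of all genes did), and its median was -0.05. Without Blnc1 replicate 2 that median was 0.05. The membrane-bound transferases Mgst1, Mgst2 and Mgst3 were not placed in this group. Of these, Mgst2 (0.18) lay wholly above, Mgst1 (-0.16) wholly below, and Mgst3 overlapped. The 8 selenocysteine enzymes (Gpx1, Gpx2, Gpx3, Gpx4, Txnrd1, Txnrd2, Txnrd3 and Msrb1) had 4 positive and 4 negative values and a median of 0.01.

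Other genes of the pathway were read from 5 lists that did not overlap the members. The lists were chosen with earlier results of these data known. Of 19 measured partners and further targets of NRF2, 2 rose (limma, adjusted p under 0.05) and none fell, with a median of 0.02. Of all genes 0.86% rose and 0.366% fell at that threshold. Hmox1, the inducible haem oxygenase, read 7.22 and 7.53 in Blnc1 cells, against 5.85 and 6.02 in vector cells (1.44 ± 0.13 SE, limma adjusted p = 0.0221). Maff, a small MAF protein that pairs with NRF2, read 6.49 and 6.71 in Blnc1 cells, against 5.74 and 5.82 in vector cells (0.82 ± 0.099 SE, limma adjusted p = 0.0382). The Blnc1 arrays lay far above the vector arrays for both genes. The ferritin chains Fth1 and Ftl1 stood at 0.12 and 0.02, and the other small MAF genes Mafg and Mafk at 0.16 and 0.01. The next smallest p-values belonged to Ugdh, which makes UDP-glucuronic acid (-0.30), and Rbx1, a subunit of the KEAP1 ubiquitin ligase (-0.20), neither of which passed. Further probe sets of Rbx1 stood at -0.02 and -0.05, each with overlapping groups.

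Of 12 genes of glutathione turnover and cysteine supply, 1 rose (0.86% of all genes did) and none fell (0.366%), with a median of 0.07. It was Oplah, 5-oxoprolinase, which returns the 5-oxoproline released from broken-down glutathione to glutamate. It read 8.05 and 8.03 in Blnc1 cells, against 7.08 and 7.16 in vector cells, 1.89-fold higher (0.92 ± 0.079 SE, limma adjusted p = 0.0217). Hagh, a hydrolase of the glyoxalase pathway, stood at 0.27, Cth, which makes cysteine, at -0.39, and Ggt5 at -0.34, and none of these passed. The values of Cth and Ggt5 depended on single arrays: Cth stood at -0.22 without Blnc1 replicate 2 and -0.57 without replicate 1, and Ggt5 at -0.11 without Blnc1 replicate 1 and -0.56 without replicate 2. Cbs, the cystathionine synthase upstream of Cth, stood at -0.04 on the probe set used. Its second probe set, named after its values were seen and of the kind prone to cross-hybridisation, read 3.99 and 4.16 in Blnc1 cells, against 4.77 and 4.76 in vector cells (-0.69 ± 0.090 SE, limma adjusted p = 0.0427).

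Of 12 NADPH-supplying genes 1 fell (0.366% of all genes did) and none rose (0.86%), with a median of -0.0021. Nnt, the mitochondrial transhydrogenase that makes NADPH in the matrix, read 4.19 and 4.24 in Blnc1 cells, against 4.87 and 4.85 in vector cells (-0.65 ± 0.076 SE, limma adjusted p = 0.0360). Both groups were dim, and its second probe set, which is not of the cross-hybridising kind, stood at -0.31 and did not pass (limma adjusted p = 0.337). The mitochondrial isocitrate dehydrogenase Idh2 stood at 0.28 and the pentose phosphate enzyme Pgls at 0.32, with the malic enzyme Me1 at -0.16, and none passed.

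The call of Hmox1 was lost without either Blnc1 array (limma adjusted p = 0.0862 without replicate 1 and 0.119 without replicate 2), and those of Maff, Oplah and Nnt were lost without any one of the 4 arrays. Adjusted p then lay between 0.0882 and 0.159 for Maff, 0.0579 and 0.127 for Oplah, and 0.114 and 0.159 for Nnt (limma). With an array left out, the calls among all 10926 genes fell in the same way, to 3 without either Blnc1 array and 22 or 23 without a vector array, against 134 with all arrays. The log2 fold change of Hmox1 stayed between 1.28 and 1.59.

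The remaining lists had no gene past the test. Of 3 measured genes tied to superoxide, peroxide or quinone turnover, Aifm2, a ubiquinone reductase that opposes lipid peroxidation alongside Gpx4, read 9.42 and 9.54 in Blnc1 cells, against 9.07 and 9.08 in vector cells. It did not pass (0.41 ± 0.082 SE, limma adjusted p = 0.0869), and 2 further probe sets stood at 0.31 and 0.66. The oxidase subunit Cyba stood at -0.32 with overlapping groups, at -0.10 without Blnc1 replicate 2 and -0.54 without replicate 1. The amine oxidase Maob stood at -0.18, also with overlapping groups, and turned positive without Blnc1 replicate 2 (0.03) or vector replicate 2 (0.09). Among 6 genes of selenoprotein synthesis and selenium binding, Selenbp1 stood at 0.64, Eefsec, the elongation factor for selenocysteine, at -0.38, Pstk at 0.23 and Sephs2 at 0.12, and their median was 0.08.

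**Figure D4:**
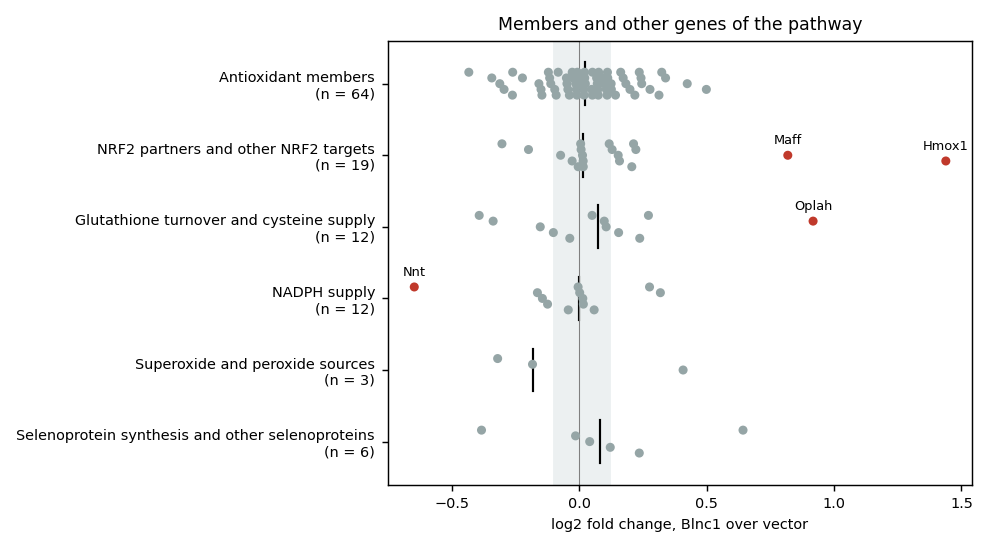
Log2 fold change, Blnc1 over vector (horizontal axis), of the 64 members and of the 5 lists of other pathway genes, 1 point per gene; red points passed the adjusted test, black bars are medians, and the grey band is the interquartile range of all genes, from -0.10 to 0.12. No member is red, and the 4 red genes are Hmox1, Maff, Oplah and Nnt.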

How the data were processed

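The authors deposited a log2 expression value for each probe set on each array. RMA, affy and limma are named as tools, per the submitters' processing notes, with no version, setting or order, and the log2 scale was read from the values. Summaries of this kind understate changes of dim probe sets. Names come from the annotation of the array platform, where it gives exactly 1 symbol (16692 of 23599 probe sets, besides 35 control probe sets), and the 64 members' gene IDs were all found in the RefSeq table.

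Groups came from the sample titles. All 23599 probe sets were fitted with limma 3.58.1, run in R 4.3.3 (functions lmFit, then eBayes; no covariate, two-sided), with Benjamini-Hochberg adjustment and a threshold of 0.05; only members' and listed genes' values are printed. The fit was tested on simulated data. Values on every array are given for the 12 members with the smallest p, the 4 brightest and a fixed set of hub genes, and for the leading genes of each list. Members and lists were chosen with earlier results of these data known. Alternatives changed the variance prior, normalization, filters, probe sets, threshold, block and arrays used.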

Additional observations from a re-analysis of the deposited data

How the results depend on the processing

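In place of 0, 11 members passed when the variance prior followed the level, and 2 passed (Sod2 and Gpx7) at an adjusted p of 0.10; under all other settings, including each left-out array, none did. Of the listed pathway genes 4 passed in the main setting, 13 with the level-dependent prior, 0 without moderation, 1 with the replicate number as a block and 0 to 1 when an array was left out; of all 10926 genes 134 passed, and 1237, 0, 19 and 3 to 23 under those alternatives in that order. The labels do not say that the numbers pair the arrays, and 2 pairs are too few to tell; across all probe sets the replicate differences of the 2 groups correlated at 0.089, and across the 64 members at 0.46. Leaving out an array gave 32 to 44 positive members and medians of 3.02e-04 to 0.053 for all members, 0.12 to 0.22 for mitochondrial members, -0.0092 to 0.0497 for the others and -0.14 to 0.047 for endoplasmic reticulum members. The median difference within the mitochondrial pairs lay between 0.19 and 0.27. Among the named genes, signs turned for Sod1 after repeated quantile normalization (-0.0016) and for Txndc9 on its second probe set (-0.085). With an array left out, Sod1 ranged from -0.0066 to 0.053, Gpx1 from -0.15 to 0.10, Nfe2l2 from -0.053 to 0.20 and Maob from -0.46 to 0.091; the cause was not tested. Dim probe sets, 9 members with a mean under 5, limit what can be read for Nqo1 and several transferases.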
